A study of Homo sapiens with 18 samples.

Results

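A set of 10 genes that shape blood vessels or calcium and growth-factor handling was followed through a set of engineered human endometrial stromal cells: the vascular endothelial growth factors VEGFA, VEGFB and VEGFC, the platelet-derived growth factor PDGFD, angiopoietin 1 (ANGPT1) and its receptor TEK, the neuropilins NRP1 and NRP2, and the stanniocalcins STC1 and STC2. They were taken by gene symbol, and all 10 were found, 1 entry each, among the 78724 genes of the count table; all 10 were among the 15558 genes abundant enough to be tested. Messenger RNA was read from THESC, an immortalised line of human endometrial stromal cells (the fibroblast-like cells under the lining epithelium of the uterus), in 6 groups of 3 libraries. Promoter cells carry the guide RNA named promoter and are labelled as dominated by isoform B of PGR, the progesterone receptor. U1U2 cells carry the guides named U1U2 and are labelled as holding isoforms A and B in equivalent amounts, and NT cells carry a non-targeting guide and are labelled wild type. Each line was given 1 µM medroxyprogesterone acetate (MPA), a synthetic progestin, or vehicle (0.01% ethanol) for 72 hours after 24 hours in medium with 2% serum. All 3 lines had been kept in blasticidin, and all 18 libraries bear the same batch label, which leaves no separate batch in which to repeat a comparison. Each guide is represented by 1 line, and no label states that replicates grew as separate cultures. The p-values therefore reflect library-to-library variation alone, possibly of technical origin.

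Vascular endothelial growth factors are secreted ligands of receptor tyrosine kinases, and neuropilins are their coreceptors as well as receptors, with plexins, for the class 3 semaphorins. Angiopoietin 1 activates TEK, also called TIE2, a receptor best known on endothelial cells, and PDGFD is a ligand of the receptor PDGFRB. Stanniocalcins are secreted glycoproteins that inhibit pappalysins, the proteases that free insulin-like growth factors. Stromal cells that decidualise under progesterone lie beside the spiral arteries of the endometrium, and factors they secrete act on those vessels.

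Under MPA, NRP2 rose and TEK and STC1 fell in all 3 lines, and ANGPT1 and PDGFD rose in promoter and in U1U2 cells. VEGFA, VEGFC, NRP1 and STC2 passed the test for MPA in no line, and VEGFB fell in promoter cells, a call lost under 5 of 11 alternative fits. Without MPA, PDGFD was lower and TEK higher in promoter than in NT cells. ANGPT1 was lower without MPA in both activated lines than in NT cells, though the U1U2 call was lost under 6 of 11 alternative fits. The rise of NRP2 under MPA was larger in promoter than in NT cells.

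The upstream sequence of NRP2 and of TEK is shown because their mRNAs moved in opposite directions under MPA in every line. NRP2 lies on chromosome 2 (205681990 to 205798133, plus strand) and TEK on chromosome 9 (27109141 to 27230175, plus strand) in GENCODE 29 on GRCh38. The sequences come from RefSeq promoter windows on build GRCh38.p14, which matched 6 of the 10 genes (NRP2, TEK, VEGFB, VEGFC, PDGFD and STC2). Each is given on the plus strand up to the last base before the first GENCODE 29 exon of its gene in the window. No annotated exon of that gene is therefore included, while exons of other genes were not checked. Capitals mark the GC box GGGCGG or, on the other strand, CCGCCC, where neighbouring matches can run together. The NRP2 window is chr2:205682251-205682499 and the TEK window chr9:27108975-27109140; the NRP2 window also lies in an intron of a transcript that starts farther upstream.
NRP2: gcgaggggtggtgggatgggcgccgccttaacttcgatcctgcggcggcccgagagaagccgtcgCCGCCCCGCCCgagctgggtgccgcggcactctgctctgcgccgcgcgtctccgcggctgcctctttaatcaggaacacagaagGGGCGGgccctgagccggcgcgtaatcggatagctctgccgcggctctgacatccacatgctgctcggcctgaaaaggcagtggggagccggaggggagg
TEK: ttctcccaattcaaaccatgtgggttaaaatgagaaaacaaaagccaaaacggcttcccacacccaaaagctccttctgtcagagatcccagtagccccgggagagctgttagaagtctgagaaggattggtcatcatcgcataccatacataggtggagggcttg
In the 250 bases upstream of the RefSeq start, G and C made up 70% of the NRP2 window and 46.4% of the TEK window, against a median of 58% over 35116 promoters, and the printed stretches are those bases before the exon. The GC box was found 3 times for NRP2, 6 times for VEGFB, 2 times for VEGFC and 1 time for PDGFD, and 42.6% of all promoters hold it. None of the windows of the 6 genes, with more than 1 start for TEK, held, on either strand, the palindromic steroid receptor element (0.00285% of promoters), the half-site TGTTCT (12.4%), the forkhead motif GTAAACA (2.98%) or the hypoxia response core ACGTG (18.5%). The full element is the half-site and its reverse complement set 3 bases apart, so each of its matches also holds the half-site. Not all of the 250 bases lie before annotated exon. The STC2 window and the second TEK window had 0 bases before an annotated exon of the gene, PDGFD had 18 and VEGFB 204. The PDGFD box, 81 bases before the RefSeq start, and the VEGFB box 8 bases before it lie past those bases. These matches describe letters in the window and no binding.

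Library totals ran from 11.9 to 33.4 M counts (median 22.9 M), and NT vehicle libraries were among the shallower, with 11.9, 20.8 and 15.4 M. PGR, the gene whose isoforms name the lines, ran from 395 to 475 CPM (counts scaled to the size of the library) in promoter vehicle, from 531 to 674 CPM in U1U2 vehicle and from 120 to 153 CPM in NT vehicle, so every activated library stood above every NT library. FKBP5, a gene that progestins induce through steroid receptors, averaged 348 CPM in promoter MPA against 20.8 CPM in promoter vehicle. The cells carried stromal transcripts: 10 stromal markers summed to between 10681 and 17913 CPM. Of 8 endothelial markers, CLDN5 and ERG had 0 counts in every library, CDH5 had at most 2 counts, KDR at most 3 and PECAM1 at most 4. In such bulk libraries, fewer cells of a type and less RNA per cell cannot be told apart.

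**Figure D1:**
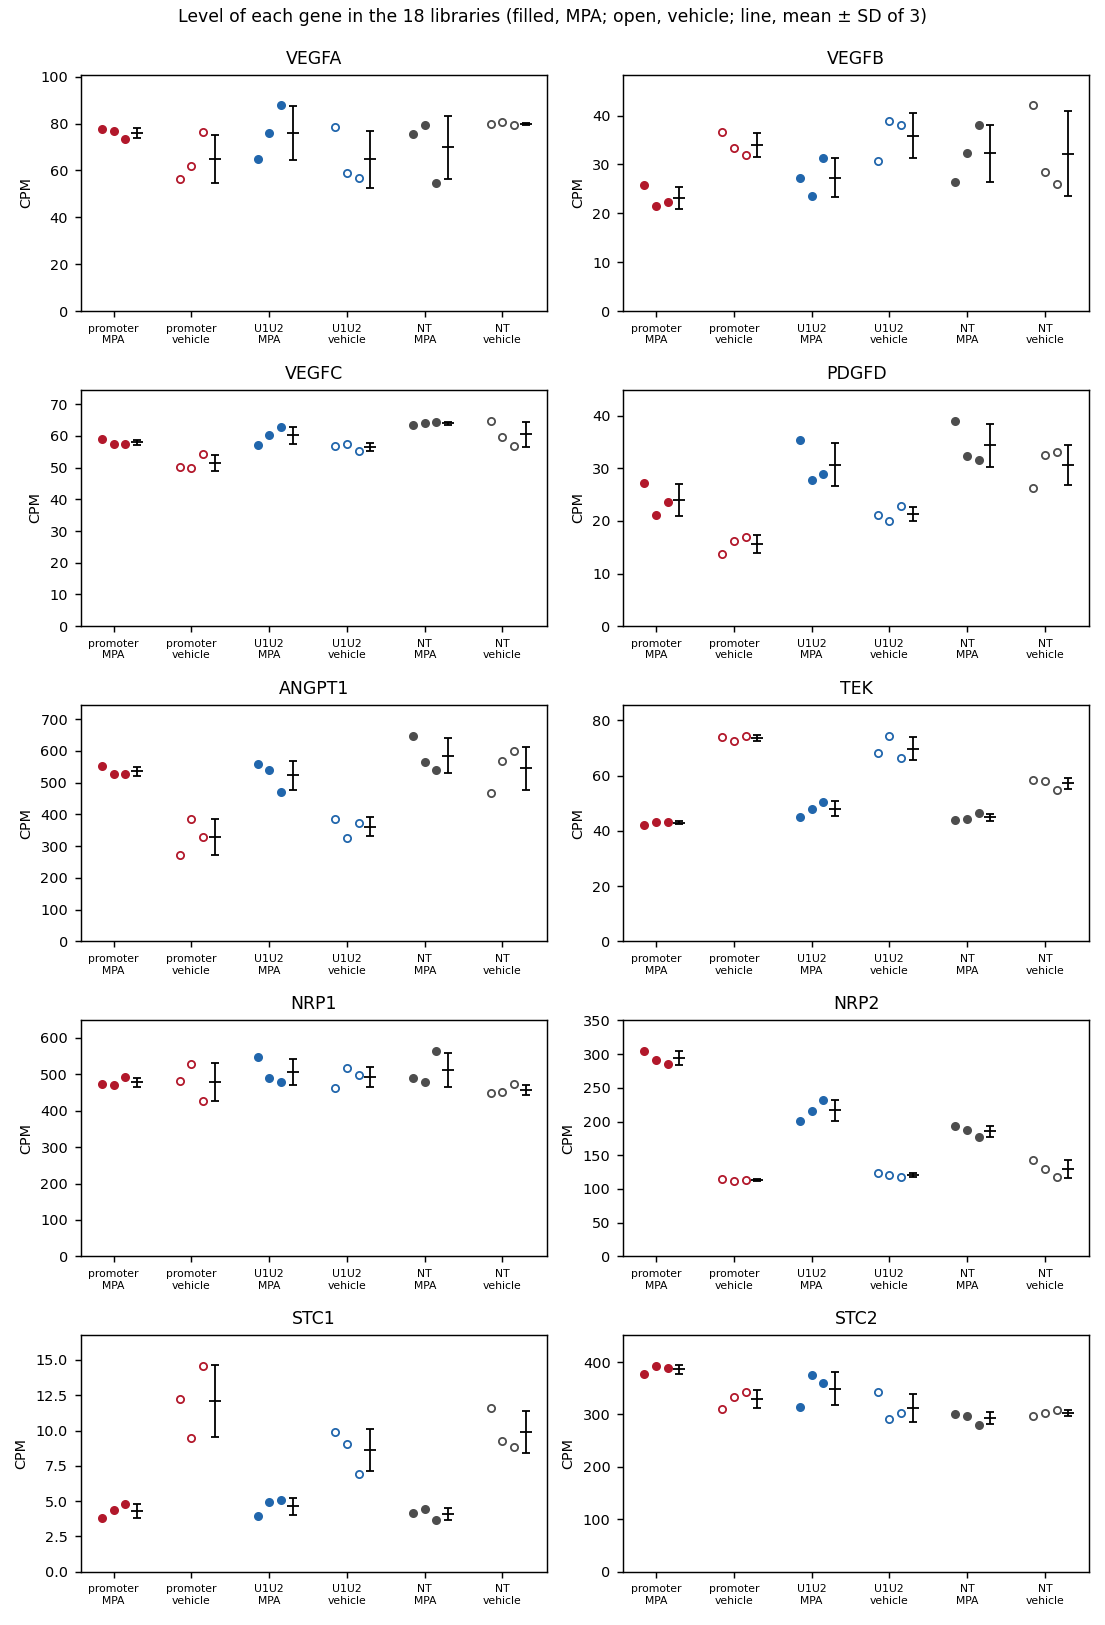
Level of each of the 10 genes in CPM (linear axis from 0) in the 18 libraries, with MPA libraries filled, vehicle libraries open and the mean ± SD of 3 libraries beside them. NRP2 stands at 286 to 305 CPM in promoter MPA and at 112 to 115 CPM in promoter vehicle, and TEK at 42.2 to 43.3 CPM and 72.4 to 74.5 CPM in the same groups.

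Set per kilobase of annotated exon, ANGPT1 and STC2 had the highest levels of the 10 mRNAs. ANGPT1 stood at 75.2 ± 1.90 CPM per kilobase in promoter MPA and 76.5 ± 9.67 in NT vehicle, and STC2 at 63.0 ± 1.32 and 49.4 ± 0.855 in the same groups (SD, n = 3 each). In promoter vehicle the order was the other way, with STC2 at 53.7 ± 2.79 and ANGPT1 at 46.3 ± 7.92 CPM per kilobase, and in U1U2 vehicle STC2 at 50.8 ± 4.39 and ANGPT1 at 50.7 ± 4.32 did not differ beyond their spread. NRP1 had 41.4 CPM per kilobase in promoter MPA and 39.7 in NT vehicle. NRP2 stood at 21.2 CPM per kilobase in promoter MPA and 9.34 in NT vehicle. STC1 was the least abundant, at 1.04 CPM per kilobase in promoter MPA and 2.39 in NT vehicle. Exon lengths were the union of all annotated exons, which lowers the value of genes with many rarely used exons.

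In promoter cells 6 of the 10 genes passed the test for MPA, 3 higher and 3 lower, while 15% of all tested genes did, 6.63% higher and 8.4% lower. In U1U2 cells 3 were higher and 2 lower, with 11.7% of all genes called, 5.44% higher and 6.22% lower. In NT cells 1 was higher and 2 were lower, with 5.93% of all genes called, 2.44% higher and 3.48% lower. MPA and vehicle libraries did not overlap for 8 genes in promoter cells (35.7% of all tested genes), 5 in U1U2 cells (23.8%) and 4 in NT cells (19.3%). The median log2 fold change of the 10 genes was 0.20 in promoter, 0.13 in U1U2 and 0.04 in NT cells, beside 0.00, 0.03 and 0.02 over all tested genes. The 10 genes were chosen with earlier results of these data known, so setting them beside all genes tests nothing about the list.

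NRP2, the coreceptor of VEGFC and of several semaphorins, rose in each line. In promoter cells it had 305, 292 and 286 CPM in MPA, against 115, 112 and 113 CPM in vehicle. U1U2 cells gave 201, 216 and 232 CPM in MPA, against 124, 121 and 117 CPM in vehicle, and NT cells gave 193, 187 and 177 CPM in MPA, against 143, 129 and 117 CPM in vehicle. Every MPA library lay above every vehicle library of any line, and the promoter MPA libraries stood apart at the top. The log2 fold change was 1.37 ± 0.08 (SE) in promoter cells (edgeR adjusted p = 8.63e-10), 0.84 ± 0.08 in U1U2 cells (adjusted p = 4.38e-07) and 0.52 ± 0.08 in NT cells (adjusted p = 0.00028).

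The response of NRP2 was larger in promoter than in NT cells by 0.86 ± 0.11 on the log2 scale (adjusted p = 0.000361), where 1.56% of all genes passed the same test of a difference of responses. In MPA, NRP2 was higher in promoter than in NT cells by a log2 fold change of 0.67 ± 0.08 (adjusted p = 2.3e-05), and higher than in U1U2 cells by 0.44 ± 0.08 (adjusted p = 0.0151). The call against U1U2 cells was lost under 6 of 11 alternatives, all with fewer samples (only the 2 groups, without promoter MPA replicate 1, 2 or 3, or without U1U2 MPA replicate 1 or 2; adjusted p up to 0.114). The gap in response between promoter and U1U2 cells, 0.53 ± 0.11, did not pass (edgeR adjusted p = 0.109; DESeq2 adjusted p = 0.00041). Between U1U2 and NT cells the response differed by 0.33 ± 0.11, which did not pass either (adjusted p = 0.388).

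NRP1, the paralogue that also binds VEGFA and SEMA3A, ranged from 426 to 564 CPM over all 18 libraries. Its MPA and vehicle libraries overlapped in promoter and U1U2 cells, and in NT cells MPA libraries had 490, 478 and 564 CPM, against 449, 451 and 474 CPM in vehicle, without passing the test (adjusted p = 0.404). The 95% intervals of its log2 fold change under MPA were -0.19 to 0.19 in promoter, -0.15 to 0.23 in U1U2 and -0.03 to 0.35 in NT cells. Taken within each library and per kilobase, a measure chosen after the values were seen and not tested, NRP2 stood at 0.511 ± 0.0272 of NRP1 in promoter MPA, against 0.198 ± 0.0218 in promoter vehicle (SD, n = 3 each). This share was 0.357 ± 0.0491 in U1U2 MPA, against 0.204 ± 0.0155 in U1U2 vehicle, and 0.303 ± 0.0378 in NT MPA, against 0.236 ± 0.0299 in NT vehicle. Both neuropilin genes share exon bases with an antisense gene, NRP1 with AL121748.2 over 561 bases and NRP2 with AC007362.1 over 147, and the strand setting of the counting is not given in the sources used here.

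**Figure D2:**
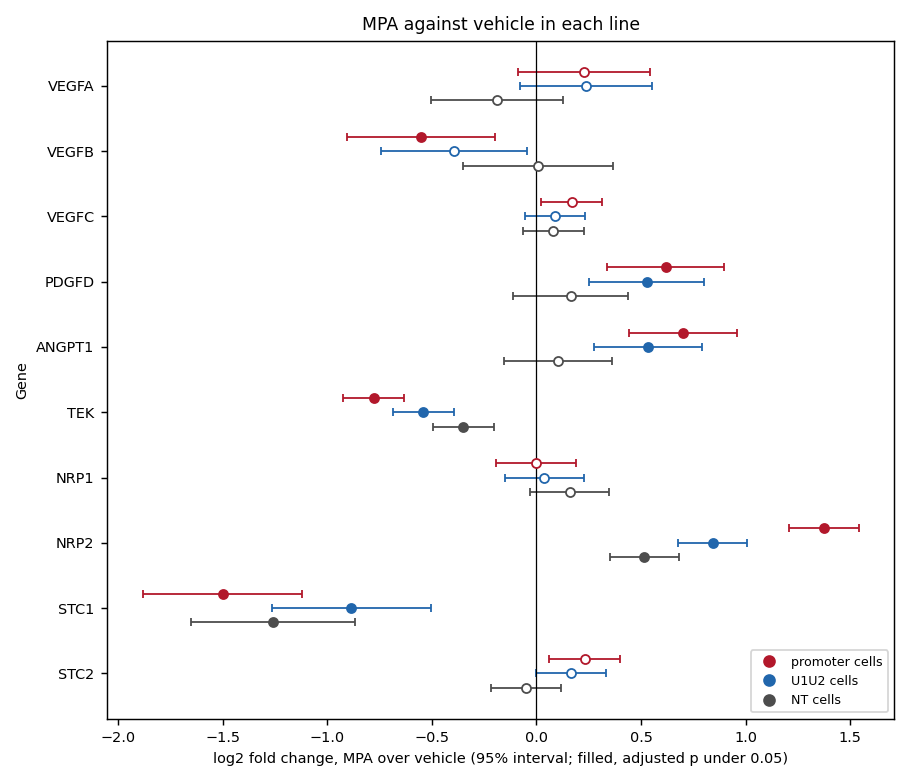
Log2 fold change of MPA over vehicle for each gene in promoter, U1U2 and NT cells, with the 95% interval from the edgeR fit as a bar and genes at an adjusted p under 0.05 filled. NRP2 lies at 1.37, 0.84 and 0.52 in the 3 lines, STC1 at -1.5, -0.88 and -1.26, and NRP1 near 0.

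TEK, the angiopoietin receptor, fell under MPA in every line. Promoter cells had 42.2, 43.3 and 43.3 CPM in MPA, against 73.9, 72.4 and 74.5 CPM in vehicle. U1U2 cells had 45.1, 48.1 and 50.5 CPM in MPA, against 68.2, 74.4 and 66.5 CPM in vehicle, and NT cells had 43.9, 44.4 and 46.3 CPM in MPA, against 58.5, 58.1 and 54.9 CPM in vehicle. All 9 MPA libraries lay below all 9 vehicle libraries, and the lines lay closer together in MPA than in vehicle. The log2 fold changes were -0.78 ± 0.07 in promoter (adjusted p = 1.95e-07), -0.54 ± 0.07 in U1U2 (adjusted p = 2.25e-05) and -0.35 ± 0.07 in NT cells (adjusted p = 0.0038). The NT call was lost with no filter on low counts (adjusted p = 0.157) and with only the NT groups fitted (adjusted p = 0.0994). The fall was larger in promoter than in NT cells by 0.43 ± 0.10 on the log2 scale (difference -0.43, adjusted p = 0.0335), but this call was lost under 14 of 17 alternatives, among them the omission of any 1 library other than NT vehicle replicate 1 (adjusted p up to 0.185).

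Of the 8 endothelial markers only TIE1, the other receptor of the TIE family, was abundant enough to be tested. TIE1 had 0.339, 0.152 and 0.271 CPM in promoter MPA, against 0.786, 1.19 and 0.863 CPM in promoter vehicle, from 1 to 31 counts per library over the series. It fell in promoter cells by 1.83 (SE 0.39) on the log2 scale (adjusted p = 0.00264), and did not pass in U1U2 cells (adjusted p = 0.503) or NT cells (adjusted p = 0.587). In vehicle it was higher in promoter cells than in NT cells (2.26 ± 0.46, adjusted p = 0.00536) and than in U1U2 cells (2.01 ± 0.38, adjusted p = 0.0158, lost under 6 of 11 alternatives, among them without any single U1U2 vehicle library and without promoter vehicle replicate 2 or 3). The 8 endothelial markers summed to 0.228 to 0.452 CPM in promoter MPA and 1.07 to 1.48 CPM in promoter vehicle, to 0.17 to 0.407 CPM in U1U2 MPA and 0.369 to 0.479 CPM in U1U2 vehicle, and to 0.216 to 0.344 CPM in NT MPA and 0.524 to 0.837 CPM in NT vehicle. The sums overlap between MPA and vehicle in U1U2 cells, TIE1 is part of them, and the other 7 markers had at most 11 counts in any library. TEK had between 673 and 2675 counts per library. Leukocyte markers, of which 1 of 6 passed 10 counts in any library, summed to 1.64 to 2.41 CPM in MPA libraries and 3.62 to 5.62 CPM in vehicle libraries. Epithelial markers, of which 5 of 7 passed 10 counts, summed to 17.1 to 36.4 CPM in MPA and 25.0 to 49.5 CPM in vehicle libraries. The part of these lists in the results was not tested.

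ANGPT1, the ligand that activates TEK, lies on chromosome 8. In promoter cells it had 552, 527 and 529 CPM in MPA, against 273, 386 and 330 CPM in vehicle. In U1U2 cells it had 560, 539 and 470 CPM in MPA, against 385, 327 and 373 CPM in vehicle, and in NT cells 648, 566 and 541 CPM in MPA, against 468, 567 and 600 CPM in vehicle. Groups did not overlap in promoter and U1U2 cells, and did in NT cells. ANGPT1 rose in promoter cells by a log2 fold change of 0.70 ± 0.12 (adjusted p = 0.000484) and in U1U2 cells by 0.53 ± 0.12 (adjusted p = 0.00632). The U1U2 call was lost without U1U2 vehicle replicate 2 (adjusted p = 0.0536). The 6 markers of pericytes, the wall cells that are a known source of ANGPT1, summed to 521 to 635 CPM in promoter MPA and 454 to 495 CPM in promoter vehicle, to 518 to 701 CPM in U1U2 MPA and 465 to 511 CPM in U1U2 vehicle, and to 572 to 692 CPM in NT MPA and 420 to 713 CPM in NT vehicle, and their part was not tested. Most of these pericyte sums came from ACTA2, with 315 to 571 CPM over the series. The other markers lay between 2.48 CPM (lowest of RGS5) and 95.5 CPM (highest of MCAM). The NT value of ANGPT1, 0.10 ± 0.12, did not pass (adjusted p = 0.726), yet the response was not shown to differ between promoter and NT cells (difference 0.60 ± 0.17, adjusted p = 0.105, passing under 4 of 17 alternatives).

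The ligand and its receptor moved in opposite directions in both activated lines. Within a library and per kilobase, again an untested measure chosen after the values were seen, ANGPT1 stood at 8.42 ± 0.342 times TEK in promoter MPA, against 3.03 ± 0.551 times in promoter vehicle. The ratio was 7.40 ± 1.06 in U1U2 MPA, against 3.51 ± 0.481 in U1U2 vehicle, and 8.81 ± 1.06 in NT MPA, against 6.45 ± 0.996 in NT vehicle (SD, n = 3 each). MPA and vehicle libraries of a line did not overlap in this ratio, and the vehicle libraries of the activated lines were the lowest.

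**Figure D3:**
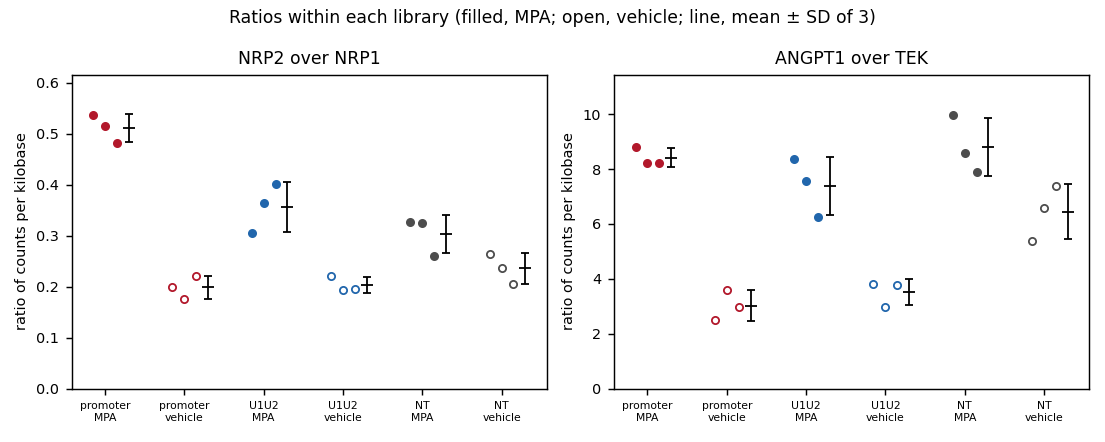
Ratio of NRP2 to NRP1 and of ANGPT1 to TEK, in counts per kilobase within each library (linear axis from 0), with MPA libraries filled, vehicle libraries open and the mean ± SD of 3 libraries beside them. NRP2 over NRP1 is highest in promoter MPA, at 0.482 to 0.536, and ANGPT1 over TEK is lowest in promoter and U1U2 vehicle, at 2.50 to 3.80.

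PDGFD, the PDGFRB ligand, had 27.2, 21.1 and 23.7 CPM in promoter MPA, against 13.8, 16.1 and 17 CPM in promoter vehicle. U1U2 cells had 35.5, 27.7 and 28.9 CPM in MPA, against 21.1, 20.1 and 22.8 CPM in vehicle, and NT cells had 39.1, 32.3 and 31.6 CPM in MPA, against 26.3, 32.5 and 33.1 CPM in vehicle. Both activated lines had every MPA library above every vehicle library, while the NT groups overlapped. PDGFD rose by a log2 fold change of 0.62 ± 0.13 in promoter cells (adjusted p = 0.00317) and of 0.53 ± 0.13 in U1U2 cells (adjusted p = 0.0116). The U1U2 call was lost without U1U2 vehicle replicate 2 or without U1U2 MPA replicate 1 (adjusted p up to 0.0685). The NT value was 0.16 ± 0.13 (adjusted p = 0.583), and the difference between promoter and NT responses, 0.45 ± 0.19, did not pass (adjusted p = 0.286). PDGFD shares 193 exon bases with DDI1 on the opposite strand.

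VEGFB, a ligand of FLT1, had 25.8, 21.5 and 22.4 CPM in promoter MPA, against 36.6, 33.3 and 32.0 CPM in promoter vehicle. It fell there by 0.55 on the log2 scale (-0.55 ± 0.17, adjusted p = 0.0326), a call lost without promoter vehicle replicate 1 or 2, without promoter MPA replicate 2 or 3 and with the replicate number in the fit (adjusted p up to 0.132). In U1U2 cells it had 27.2, 23.5 and 31.3 CPM in MPA, against 30.7, 39.0 and 38.0 CPM in vehicle, with a value of -0.39 ± 0.17 that did not pass (adjusted p = 0.154). NT cells gave 0.01 ± 0.17 (adjusted p = 0.993), with overlapping groups and the widest spread, 26.1 to 42.1 CPM in vehicle.

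VEGFA, the main vascular growth factor of the family, ranged from 54.6 to 87.7 CPM over all libraries and its MPA and vehicle libraries overlapped in every line; it shares 188 exon bases with the antisense gene AL136131.3. Its log2 fold change under MPA was 0.23 ± 0.15 in promoter, 0.24 ± 0.15 in U1U2 and -0.19 ± 0.15 in NT cells, with 95% intervals of -0.09 to 0.54, -0.08 to 0.55 and -0.51 to 0.13. VEGFC, the ligand linked to lymphatic growth, was the steadiest gene, from 50 to 64.9 CPM, a range of 1.3 times. In promoter cells it had 58.9, 57.4 and 57.4 CPM in MPA, against 50.2, 50 and 54.4 CPM in vehicle; the groups did not overlap, but 0.17 ± 0.07 passed DESeq2 and not edgeR (adjusted p = 0.118).

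STC1 was the member with the fewest counts, between 53 and 524 per library, and lies on chromosome 8. Promoter cells had 3.80, 4.34 and 4.79 CPM in MPA, against 12.2, 9.48 and 14.6 CPM in vehicle. U1U2 cells had 3.94, 4.93 and 5.05 CPM in MPA, against 9.86, 9.03 and 6.94 CPM in vehicle, and NT cells had 4.16, 4.46 and 3.65 CPM in MPA, against 11.6, 9.24 and 8.84 CPM in vehicle. All MPA libraries lay below all vehicle libraries, and the lines overlapped one another in MPA. STC1 fell by 1.5 (SE 0.18) on the log2 scale in promoter cells (adjusted p = 8.63e-06), by 0.88 (SE 0.18) in U1U2 cells (adjusted p = 0.00259) and by 1.26 (SE 0.19) in NT cells (adjusted p = 0.000224), and these calls held under all 11 alternatives in each line. The fall in promoter cells was not shown to differ from that in U1U2 cells (difference -0.62 ± 0.25, adjusted p = 0.85) at an unadjusted p of 0.0264.

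STC2, which inhibits pappalysins by binding them covalently, passed the edgeR test for MPA in no line. In promoter cells it had 377, 393 and 388 CPM in MPA, against 310, 334 and 343 CPM in vehicle, and the groups did not overlap; the value of 0.23 ± 0.08 passed DESeq2 and not edgeR (adjusted p = 0.0643). In U1U2 cells 0.17 ± 0.08 (adjusted p = 0.224) and in NT cells -0.05 ± 0.08 (adjusted p = 0.804) did not pass. Compared in MPA, promoter cells had more STC2 than NT cells, with 377, 393 and 388 CPM against 301, 297 and 280 CPM. That log2 fold change was 0.40 ± 0.08 (adjusted p = 0.00554) and held under all 11 alternatives. U1U2 MPA libraries, with 315, 374 and 359 CPM, also lay above NT MPA libraries, but 0.26 ± 0.08 did not pass (adjusted p = 0.163). STC2 per kilobase stood at 61.1 ± 6.11 times STC1 in promoter MPA, against 19.0 ± 4.26 times in promoter vehicle, a ratio chosen after the values were seen and not tested.

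Compared without MPA, 3 of the 10 genes differed between promoter and NT cells, where 6.75% of all genes did. PDGFD was lower in promoter cells, with 13.8, 16.1 and 17 CPM against 26.3, 32.5 and 33.1 CPM in NT cells (log2 fold change -0.97 ± 0.13, adjusted p = 0.000316). ANGPT1 was lower too, with 273, 386 and 330 CPM against 468, 567 and 600 CPM (-0.73 ± 0.12, adjusted p = 0.00148). TEK was higher, with 73.9, 72.4 and 74.5 CPM against 58.5, 58.1 and 54.9 CPM (0.36 ± 0.07, adjusted p = 0.00345), a call lost with only the 2 groups fitted (adjusted p = 0.068). Libraries of the lines did not overlap for 7 of the 10 genes, these 3 among them, and for 21% of all tested genes. VEGFC, with 50.2, 50 and 54.4 CPM in promoter vehicle against 64.9, 59.8 and 56.9 CPM in NT vehicle, missed the threshold (-0.23 ± 0.07, adjusted p = 0.0552) and passed with RLE factors, by DESeq2, and without NT vehicle replicate 3 or promoter vehicle replicate 3. NT vehicle libraries also had the higher mitochondrial share of counts, 2.51% to 3.03%, and its part in these differences was not tested.

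U1U2 vehicle cells differed from NT vehicle cells in 1 gene, ANGPT1, where 1.14% of all genes differed. It had 385, 327 and 373 CPM against 468, 567 and 600 CPM in NT cells (-0.59 ± 0.12, adjusted p = 0.0289), a call lost under 6 of 11 alternatives, among them without NT vehicle replicate 2 or 3 and without U1U2 vehicle replicate 2 or 3. PDGFD (-0.53 ± 0.13, adjusted p = 0.0617) and TEK (0.29 ± 0.07, adjusted p = 0.0526) missed the threshold, each with groups that did not overlap; groups did not overlap for 4 of the 10 genes and for 16.2% of all genes. Both activated lines are set against the same 3 NT libraries, so these values are not independent of those of promoter cells. The vehicle libraries of a line also enter its MPA response, so that response is not independent of the vehicle differences given here. Between promoter and U1U2 vehicle cells, edgeR and DESeq2 called none of the 10 genes, and edgeR called 0.784% of all genes. Their libraries did not overlap for 3 of the 10 genes and for 13.1% of all genes. At an unadjusted edgeR p under 0.05 stood 2 of the 10 genes and 1349 of the 15558 tested genes. Those 2 were PDGFD (-0.45 ± 0.13, adjusted p = 0.176), with 13.8, 16.1 and 17 CPM in promoter cells and 21.1, 20.1 and 22.8 CPM in U1U2 cells, and STC1 (0.50 ± 0.17, adjusted p = 0.287).

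**Figure D4:**
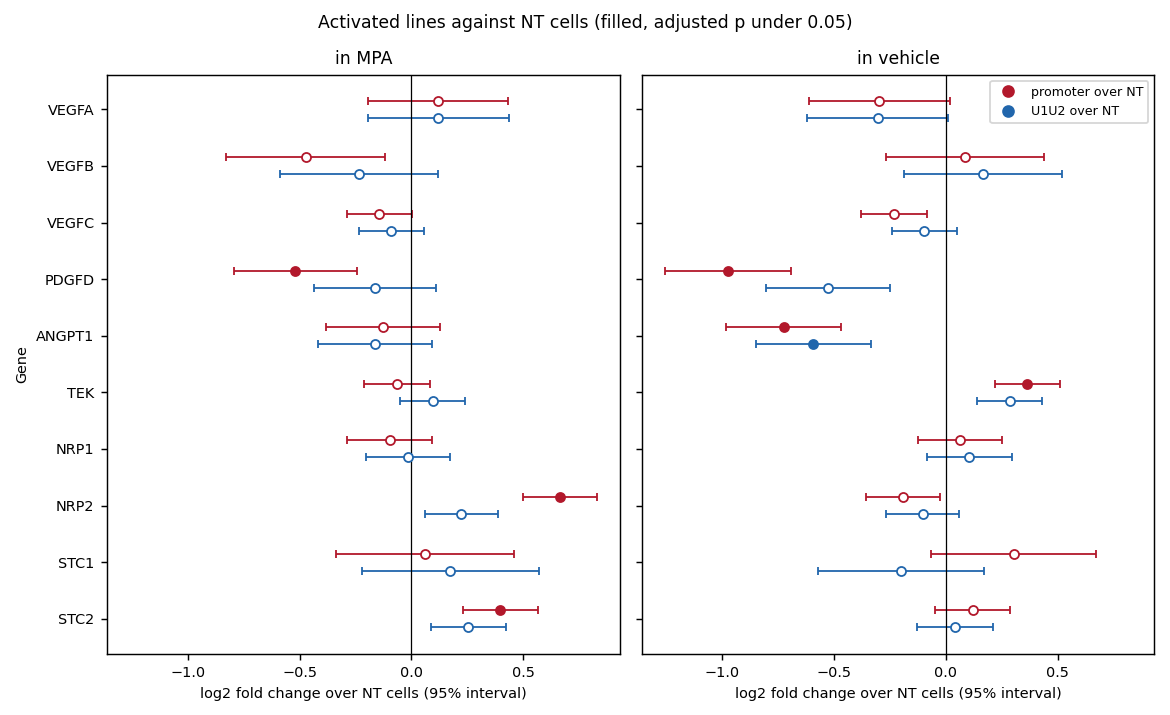
Log2 fold change of promoter and of U1U2 cells over NT cells in MPA and in vehicle, with the 95% interval from the edgeR fit as a bar and genes at an adjusted p under 0.05 filled. In vehicle, PDGFD and ANGPT1 lie at -0.97 and -0.73 for promoter cells, and in MPA NRP2 and STC2 lie at 0.67 and 0.40.

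In MPA, promoter and NT cells differed in 3 of the 10 genes, beside 4.15% of all genes: NRP2 and STC2 were higher and PDGFD was lower. Libraries did not overlap for 6 of the 10 genes and for 23.1% of all genes. PDGFD had 27.2, 21.1 and 23.7 CPM in promoter MPA against 39.1, 32.3 and 31.6 CPM in NT MPA (-0.52 ± 0.13, adjusted p = 0.0271), a call lost without NT MPA replicate 1 or 2 or promoter MPA replicate 2 or 3. ANGPT1, lower in promoter cells without MPA, had 527 to 552 CPM in promoter MPA and 541 to 648 CPM in NT MPA, which overlapped (adjusted p = 0.735). No member differed between U1U2 and NT cells in MPA by edgeR or DESeq2, with 1.72% of all genes called by edgeR. At an unadjusted edgeR p under 0.05 stood 2 members (NRP2 and STC2) and 1402 of the 15558 tested genes. Libraries did not overlap for 3 of the 10 genes and for 11.9% of all genes. Between promoter and U1U2 cells in MPA 1 gene, NRP2, was called, where 0.328% of all genes were; libraries did not overlap for 4 of the 10 genes and for 9.64% of all genes. The responses of U1U2 and NT cells differed in none of the 10 genes by edgeR or DESeq2, with 0.219% of all genes called by edgeR. At an unadjusted edgeR p under 0.05 stood 2 of the 10 genes and 1562 of the 15558 tested genes. The responses of promoter and U1U2 cells differed in none by edgeR and in 1, NRP2, by DESeq2, with 0.0129% of all genes called by edgeR. Here 3 of the 10 genes and 804 of the 15558 tested genes had an unadjusted edgeR p under 0.05.

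The wider pathway was read from a list of 57 receptors, partners, ligands and inhibitors, of which 46 were tested. Under MPA 13 were higher and 10 lower in promoter cells, 10 higher and 5 lower in U1U2 cells, and 6 higher and 6 lower in NT cells. Over all tested genes the shares called were 6.63% higher and 8.4% lower in promoter cells, 5.44% and 6.22% in U1U2 cells, and 2.44% and 3.48% in NT cells. The median log2 fold changes of the 46 genes were 0.11, 0.04 and 0.06. This list too was chosen with earlier results of these data known, so its counts beside these shares test nothing about it. The strongest changes that bear on the neuropilins were in semaphorins and a plexin. PLXNA2, a signalling partner of neuropilins in the semaphorin receptor, had 6.67, 5.17 and 6.23 CPM in promoter MPA, against 0.849, 1.00 and 0.974 CPM in promoter vehicle. It had 2.76, 3.53 and 4.4 CPM in U1U2 MPA against 1.24, 1.16 and 1.12 CPM in vehicle, and 2.21, 2.34 and 1.93 CPM in NT MPA against 1.17, 1.10 and 0.983 CPM in vehicle. All MPA libraries of PLXNA2 lay above all vehicle libraries, with the promoter libraries highest, as for NRP2. Its log2 fold change was 2.68 ± 0.19 in promoter cells (adjusted p = 9.92e-09), 1.61 ± 0.18 in U1U2 cells (adjusted p = 6.01e-06) and 1.01 ± 0.21 in NT cells (adjusted p = 0.00554), and the promoter response exceeded the NT response by 1.67 ± 0.29 (adjusted p = 0.00498). The other 5 tested plexin and adaptor genes were not called for MPA in any line. PLXNA2 was among the scarcer of them, with at most 177 counts in a library. The highest counts were 1447 for PLXNA1, 971 for PLXND1, 736 for PLXNA3, 667 for the adaptor GIPC1 and 23 for PLXNA4.

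SEMA3A, the founding class 3 semaphorin and a ligand of NRP1, went the other way. It had 89.4, 93.8 and 90.5 CPM in promoter MPA, against 305, 338 and 352 CPM in promoter vehicle. U1U2 cells had 122, 138 and 127 CPM in MPA against 428, 352 and 362 CPM in vehicle, and NT cells had 198, 190 and 162 CPM in MPA against 348, 381 and 390 CPM in vehicle. The groups were far apart in each line, and the promoter MPA libraries were the lowest of all. SEMA3A fell by 1.86 (SE 0.10) on the log2 scale in promoter cells (adjusted p = 2.16e-10), by 1.56 (SE 0.10) in U1U2 cells (adjusted p = 2.49e-09) and by 1.02 (SE 0.09) in NT cells (adjusted p = 1.1e-06), and the promoter and NT responses differed (-0.84 ± 0.13, adjusted p = 0.0024). SEMA3D, another class 3 semaphorin, fell as well, by 1.39 (SE 0.15) in promoter cells (adjusted p = 2.56e-06), by 1.55 (SE 0.15) in U1U2 cells (adjusted p = 7.8e-07) and by 1.77 (SE 0.15) in NT cells (adjusted p = 5.85e-07). Of the 5 class 3 semaphorins tested, 1 was higher and 2 were lower in each line. The 1 called higher was not among the 6 largest pathway changes of any line and is not named here. Shares over all tested genes were 6.63% higher and 8.4% lower in promoter, 5.44% and 6.22% in U1U2, and 2.44% and 3.48% in NT cells.

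**Figure D5:**
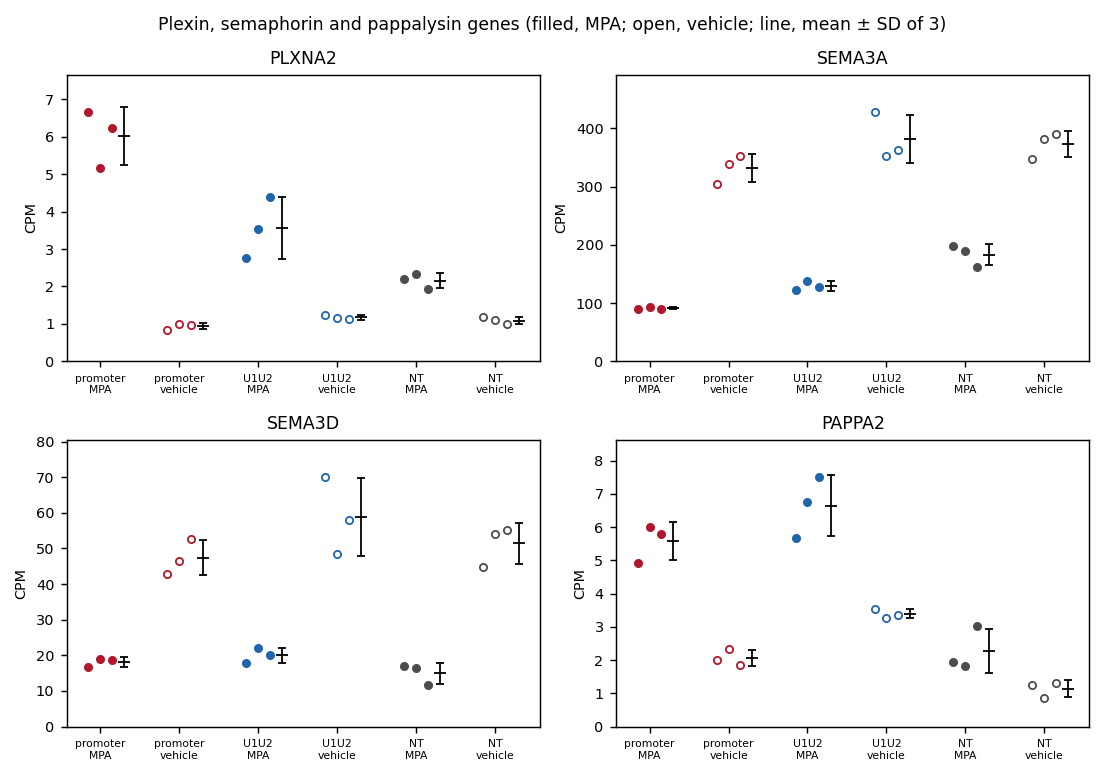
Levels of PLXNA2, SEMA3A, SEMA3D and PAPPA2 in CPM (linear axis from 0) in the 18 libraries, with MPA libraries filled, vehicle libraries open and the mean ± SD of 3 libraries beside them. PLXNA2 averages 6.02 CPM in promoter MPA and 0.942 CPM in promoter vehicle, and SEMA3A 91.3 CPM and 332 CPM in the same groups.

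Of the receptors of the VEGF ligands only FLT1 was abundant enough to be tested. FLT1, the receptor of VEGFA and VEGFB, was called higher under MPA in promoter cells, by a log2 fold change of 0.43. It was not called for MPA in U1U2 (0.09) or NT cells (0.03). In MPA it was also called higher in promoter than in NT cells, by 0.51. The stability of these calls under the alternatives was not examined. FLT1 averaged 137 ± 5.70 CPM in promoter MPA and 98.6 ± 4.59 CPM in U1U2 MPA, and was higher in the promoter cells (0.48 ± 0.09, adjusted p = 0.018). That call was lost under 6 of 11 alternatives, which were the replicate block, only the 2 groups fitted, and the omission of U1U2 MPA replicate 1 or 3 or of promoter MPA replicate 2 or 3 (adjusted p up to 0.122). Among angiopoietin-like genes ANGPTL1, a secreted relative of the angiopoietins, averaged 3.10 ± 0.879 CPM in promoter MPA against 0.166 ± 0.125 CPM in promoter vehicle, from 1 to 11 counts in each vehicle library of the series. Its log2 fold change was 4.17 ± 0.46 in promoter (adjusted p = 3.21e-06), 4.02 ± 0.44 in U1U2 (adjusted p = 3.27e-06) and 4.15 ± 0.46 in NT cells (adjusted p = 8.06e-06). These sizes moved with single vehicle libraries: the value was 5.10 without promoter vehicle replicate 3 and 5.46 without NT vehicle replicate 2, with the calls kept under all 11 alternatives in each line. CXCL12, a chemokine that attracts endothelial and blood cells, fell by 1.48 (SE 0.07) in promoter cells (adjusted p = 1.48e-10), by 1.12 (SE 0.07) in U1U2 cells (adjusted p = 6.62e-09) and by 1.24 (SE 0.07) in NT cells (adjusted p = 5.65e-09). ADAMTS1, a secreted protease that restrains angiogenesis, rose by 1.21 ± 0.10 in promoter (adjusted p = 1.18e-07), 1.16 ± 0.10 in U1U2 (adjusted p = 2.38e-07) and 1.04 ± 0.10 in NT cells (adjusted p = 2.3e-06). CXCL8, a chemokine that promotes angiogenesis, was near the limit of detection, with 2, 8 and 2 counts in promoter MPA against 20, 17 and 20 counts in promoter vehicle. It fell there by 2.11 (SE 0.53; adjusted p = 0.0109), a call lost without promoter MPA replicate 1 or 3 (adjusted p up to 0.066), and the value was -3.03 without promoter MPA replicate 2. COL18A1, the collagen from which the inhibitor endostatin is cut, had 5, 14 and 40 counts in U1U2 MPA against 3, 7 and 4 counts in U1U2 vehicle. It rose there by 2.22 ± 0.59 (adjusted p = 0.0178), a call lost without U1U2 vehicle replicate 3 or U1U2 MPA replicate 3, and the value without U1U2 MPA replicate 3 was 1.38. For HGF, hepatocyte growth factor, the MPA response of promoter cells minus that of NT cells was 0.82 ± 0.16 on the log2 scale (adjusted p = 0.0138). This call was lost without promoter vehicle replicate 1 (adjusted p = 0.0519). The difference alone does not tell a rise in promoter cells from a fall in NT cells.

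The receptor PDGFRA was lower in both activated lines without MPA, at 290 ± 18.5 CPM in promoter and 312 ± 8.80 CPM in U1U2 vehicle against 441 ± 12.2 CPM in NT vehicle, by log2 fold changes of -0.61 ± 0.09 (adjusted p = 0.000572) and -0.50 ± 0.09 (adjusted p = 0.0129). The U1U2 call was lost under 4 of 11 alternatives, among them without NT vehicle replicate 2 and without U1U2 vehicle replicate 2 or 3. PDGFRB, the receptor that PDGFD binds, was not called under MPA in any line. PAPPA2, a pappalysin that stanniocalcins inhibit, was higher in both activated lines in either medium. It averaged 5.57 ± 0.567 CPM in promoter MPA and 6.64 ± 0.920 CPM in U1U2 MPA, against 2.27 ± 0.659 CPM in NT MPA (1.33 ± 0.19, adjusted p = 0.000241, and 1.59 ± 0.19, adjusted p = 8.54e-05). In vehicle it averaged 2.07 ± 0.234 CPM in promoter and 3.39 ± 0.138 CPM in U1U2 cells against 1.14 ± 0.247 CPM in NT cells, by 0.87 ± 0.23 (adjusted p = 0.0309) and 1.60 ± 0.22 (adjusted p = 0.00252). The promoter value in vehicle was lost under 4 of 11 alternatives, among them without NT vehicle replicate 2 and without promoter vehicle replicate 1 or 2, and the U1U2 value with only the 2 groups fitted. The PAPPA2 mean in MPA was also above that in vehicle in each line. Of the 2 pappalysins tested, 1 was called higher under MPA in each line. Over all tested genes 6.63% were called higher in promoter, 5.44% in U1U2 and 2.44% in NT cells.

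Other pathway genes also differed between the lines. ANGPTL2, an angiopoietin-like glycoprotein, was lower in promoter than in NT cells in either medium, averaging 52.9 ± 6.30 CPM in promoter MPA against 87.8 ± 6.98 CPM in NT MPA (-0.73 ± 0.11, adjusted p = 0.000476) and 82.6 ± 10.5 CPM in promoter vehicle against 137.6 ± 14.1 CPM in NT vehicle (-0.73 ± 0.11, adjusted p = 0.000719). U1U2 vehicle cells, at 99.3 ± 6.06 CPM, were also lower than NT vehicle cells in ANGPTL2 (-0.47 ± 0.11, adjusted p = 0.0493), a call lost under 6 of 11 alternatives, among them without NT vehicle replicate 1 or 2 and without U1U2 vehicle replicate 2 or 3. TIMP3, a metalloproteinase inhibitor that blocks VEGF binding to its receptor KDR, averaged 207.2 ± 8.76 CPM in U1U2 vehicle against 253.7 ± 11.2 CPM in NT vehicle (-0.29 ± 0.06, adjusted p = 0.0337). That call was lost under 7 of 11 alternatives, among them the omission of any of the same 4 libraries. In promoter vehicle, SERPINF1, the secreted inhibitor also called PEDF, averaged 4.44 ± 0.459 CPM against 8.66 ± 2.74 CPM in NT vehicle (-0.94 ± 0.23, adjusted p = 0.0188), and PDGFA, a ligand of PDGFRA, 23.7 ± 3.15 CPM against 35.9 ± 4.53 CPM (-0.59 ± 0.15, adjusted p = 0.0229). Both calls were lost under the same 4 of 11 alternatives, which were only the 2 groups fitted and the omission of NT vehicle replicate 1 or promoter vehicle replicate 1 or 2.

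In MPA, PLXNA2 was higher in promoter than in NT cells (1.46 ± 0.17, adjusted p = 2.5e-05), and higher in U1U2 than in NT cells (0.72 ± 0.18, adjusted p = 0.0466), the second call lost under 9 of 11 alternatives, among them the omission of any single NT MPA library and of U1U2 MPA replicate 2 or 3. SEMA3A was lower in promoter than in NT cells (-1.01 ± 0.10, adjusted p = 1.94e-06), in U1U2 than in NT cells (-0.51 ± 0.09, adjusted p = 0.0059, lost without NT MPA replicate 1 and with only the 2 groups fitted) and in promoter than in U1U2 cells (-0.50 ± 0.09, adjusted p = 0.0245, lost under 8 of 11 alternatives, among them the omission of any single library of the 2 groups). HGF averaged 274.5 ± 4.59 CPM in promoter MPA and 273.3 ± 18.6 CPM in U1U2 MPA against 187.2 ± 23.5 CPM in NT MPA, by 0.55 ± 0.12 (adjusted p = 0.00744) and 0.54 ± 0.12 (adjusted p = 0.0166, lost under 5 of 11 alternatives, among them without NT MPA replicate 2 or 3 and without U1U2 MPA replicate 1 or 2). EFNB2, an ephrin ligand of arterial endothelium, averaged 4.38 ± 0.275 CPM in promoter MPA and 4.49 ± 0.538 CPM in U1U2 MPA against 2.96 ± 0.234 CPM in NT MPA, by 0.57 ± 0.15 (adjusted p = 0.0367) and 0.61 ± 0.15 (adjusted p = 0.0471). Those EFNB2 calls were lost under 9 and 8 of 11 alternatives, among them the omission of any single NT MPA library, any single promoter MPA library for the promoter call, and U1U2 MPA replicate 2 or 3 for the U1U2 call.

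Across the 18 libraries the gene most like NRP2, by Pearson's r of log2 CPM among 10973 candidate genes, was PLXNA2 (r = 0.986), followed by ITSN1 (r = 0.974). TEK was most like TMEM97 (r = 0.977) and SLC20A2 (r = 0.975), STC1 most like FHOD3 (r = 0.975) and TM4SF1 (r = 0.958), and ANGPT1 most like PTGFR (r = 0.967) and PIK3R1 (r = 0.940). For PDGFD the closest were PDZRN3 (r = 0.918) and TNFAIP8 (r = 0.904), for VEGFC SERPINF1 (r = 0.927) and LMOD1 (r = 0.887), and for STC2 GADD45A (r = 0.936) and ABI3BP (r = 0.932). VEGFA was closest to FUBP3 (r = 0.954) and BRD1 (r = 0.952), VEGFB to TRIP6 (r = 0.963) and VAT1 (r = 0.960), and NRP1 to XPOT (r = 0.936) and RCBTB2 (r = 0.931). Every point in these correlations is a library, so both genes of a pair share its depth, line and medium, and the values describe these libraries with no test.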

How the data were processed

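Poly(A) mRNA libraries from a stranded kit were made from column-purified total RNA, per the labels' protocols. The authors deposited a table of raw read counts. Their deposited log2 CPM table covers 10402 genes; recomputing it from the counts in edgeR (TMM, prior count 2) gave the same values to within 5e-09, so it entered no test. Per the submitters' processing notes, STAR 2.6.0c, edgeR 4.2.2, R 4.4.1 and the build hg38 were used. The counter, its strand setting and its annotation are not given in the sources used here, so reads of opposite-strand genes that share exon bases cannot be told apart with certainty.

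Counts were tested with edgeR 4.0.16 (limma 3.58.1, R 4.3.3): filterByExpr at a minimum count of 10, which kept 15558 genes, TMM factors and a quasi-likelihood model with 1 term for each of the 6 groups over all 18 libraries (common biological coefficient of variation 0.129). P-values were adjusted with the Benjamini-Hochberg method over the 15558 genes in each of 12 contrasts, with calls made at adjusted p under 0.05; every adjusted p is from this test unless DESeq2 (1.42.0) is named. Errors of log2 fold changes are standard errors. CPM values use the summed counts of the 15558 tested genes scaled by the TMM factors, and their precision is limited by counts of at least 53 per member and library. Replicate pairs differed beyond sampling noise (chi-square per degree of freedom 1.84 to 30.9), so none was taken as the same library read again. The lowest values were 1.84 for promoter MPA replicates 2 and 3 and 2.68 for NT vehicle replicates 2 and 3. The measure cannot tell separate cultures from separate preparations of 1 culture. Alternatives were RLE factors, no filter, DESeq2, the replicate number as a block, only the groups of a comparison, and each library left out. The fit was checked on simulated counts.

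The members, the pathway list, the marker lists and the naming rule were chosen with earlier results of these data known. Members were always named; pathway genes were named where called, up to the 6 with the largest absolute log2 fold change in a contrast; the 2 genes most like each member came from tested genes whose mean log2 CPM reached 1. Exon lengths and positions are from GENCODE 29.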

Additional observations from a re-analysis of the deposited data

Results flagged for a closer look

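The MPA responses of promoter and NT cells differed, by the interaction term of the edgeR fit over all tested genes, for 2 of the 10 members and 3 of the 46 pathway genes tested, beside 1.56% of all tested genes; each value below is the promoter response minus the NT response on the log2 scale. NRP2 had a difference of 0.86 (adjusted p = 0.000361), from 2.59-fold higher in MPA in promoter cells and 1.43-fold in NT cells. TEK had a difference of -0.43 (adjusted p = 0.0335), a call lost under 14 of 17 alternatives (adjusted p from 0.00225 to 0.185), among them the omission of any 1 library other than NT vehicle replicate 1. PLXNA2 had a difference of 1.67 (adjusted p = 0.00498), SEMA3A of -0.84 (adjusted p = 0.0024) and HGF of 0.82 (adjusted p = 0.0138). The HGF call was lost without promoter vehicle replicate 1 (adjusted p = 0.0519), and its difference alone does not give the direction of either response. NRP2, PLXNA2 and SEMA3A passed under all 17 alternatives.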

How the results depend on the processing

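RLE factors shifted the median log2 fold change of all genes by at most 0.0134 and changed no count by over 1.5 times. Replicate numbers gave no sign of pairing the samples: deviations of 45 same-numbered pairs correlated with a median r of -0.05, and 13 were over 0.1. Of 90 pairs with unlike numbers, 39 were over 0.1, with a median r of 0.05. Whether libraries of different groups share a factor not aligned with these numbers was not tested. With the replicate block, genes called were 62 (178 without it) for U1U2 against NT cells in vehicle, 69 (122) for promoter against U1U2 cells in vehicle, 25 (51) for the same pair in MPA, and 150 (242), 12 (34) and 0 (2) for the differences of responses promoter minus NT, U1U2 minus NT and promoter minus U1U2; members called were 0 (1) in the first and 1 (2) in promoter minus NT.

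No filter gave 808 genes and 2 members for U1U2 against NT in vehicle, and 758, 281 and 18 genes for the 3 differences. DESeq2 gave 445 genes and 3 members for U1U2 against NT in vehicle, 251 and 86 genes for promoter against U1U2 in vehicle and MPA, and 422, 113 and 52 genes with 1 member (0) in the last, for the differences. With only the groups of the comparison fitted, MPA responses gave 1049 genes (1814) in U1U2 and 491 (922) in NT cells, vehicle comparisons 435 (1050) for promoter against NT, 4 with 0 members for U1U2 against NT and 11 for promoter against U1U2, MPA comparisons 85 (268) for U1U2 against NT and 16 with 0 members (1) for promoter against U1U2, and differences 8 for U1U2 minus NT, 0 for promoter minus U1U2 and 1 member for promoter minus NT. This fit has fewer samples.

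Leaving out 1 library at a time, genes called ran from 612 (without NT vehicle replicate 2) to 972 for MPA in NT cells, 472 to 1347 for promoter against NT in vehicle, 23 to 639 for U1U2 against NT in vehicle, 39 to 64 for promoter against U1U2 in vehicle, 390 to 490 (645) for promoter against NT, 154 to 214 for U1U2 against NT and 15 to 40 for promoter against U1U2 in MPA, and 116 to 271, 8 to 47 and 0 to 3 for the differences. Members called ran from 3 to 5 for MPA in U1U2 cells, 0 to 2 for U1U2 against NT in vehicle, 0 to 1 for promoter against U1U2 in MPA and 1 to 3 for promoter minus NT.

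Signs turned only for responses near 0 that passed under no alternative: NRP1 in promoter cells (RLE 0.000223, DESeq2 0.00045, -0.074 to 0.074 without single libraries), NRP1 in U1U2 cells (-0.022 to 0.072 without single libraries) and VEGFB in NT cells (RLE -0.000746, DESeq2 -0.0012, -0.13 to 0.24 without single libraries). The cause of these changes was not tested.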

Other observations

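Hypoxia regulators of VEGFA, named here after their values were seen, included 2 that passed the edgeR test for MPA among 7 tested. HIF1A, an oxygen-regulated transcription factor subunit, was higher in promoter and U1U2 cells, and EPAS1, its relative, was lower in promoter cells. HIF1A averaged 999 ± 37.7 CPM in promoter MPA and 573 ± 67.4 CPM in promoter vehicle, 968 ± 68.0 CPM in U1U2 MPA and 592 ± 87.3 CPM in U1U2 vehicle, and 884 ± 40.1 CPM in NT MPA and 728 ± 12.2 CPM in NT vehicle (SD, n = 3 each). EPAS1 averaged 378 ± 25.3 CPM in promoter MPA and 487 ± 51.8 CPM in promoter vehicle. Of 8 secreted inhibitors of angiogenesis tested, 3 were higher and 1 lower under MPA in promoter cells, 4 higher and 0 lower in U1U2 cells, and 2 higher and 0 lower in NT cells. Over all tested genes 6.63% were higher and 8.4% lower in promoter cells, 5.44% and 6.22% in U1U2 cells, and 2.44% and 3.48% in NT cells.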
